A study of Mus musculus with 6 samples.

Results

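Epoxide hydrolases and cytochrome P450 monooxygenases make and remove the epoxides of polyunsaturated fatty acids. The genes described here are *Ephx1*, *Ephx2*, *Cyp1b1*, *Cyp4f13*, *Cyp4f16*, *Cyp4f18*, *Cyp4v3* and *Por*, chosen by their symbols, and they account for 8 of the 19309 genes in the count table. All 8 passed the filter on low counts, which asked for an average above 5 per library. The study asked how gene expression in pro-resolving macrophages depends on the soluble epoxide hydrolase (sEH), the product of *Ephx2*. RNA of M2c-polarized macrophages, grown from bone marrow, was sequenced in 6 libraries, 3 from sEH-/- and 3 from wild-type mice.

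The sEH-/- mice carry Ephx2tm1.1Arte combined with Gt(ROSA)26Sortm16(Cre)Arte, a Cre expressed from the ROSA26 locus, so that the deletion is present in every cell type and throughout life. The controls are wild-type littermates matched for age and strain, the strain named in the methods is C57BL/6N, and the mice were 8 to 10 weeks old. Cells of both genotypes were differentiated for 7 days with GM-CSF and M-CSF, each at 15 ng/mL, and were then exposed to LPS (10 ng/mL) with IFN-γ (1 ng/mL). TGF-β1 (10 ng/mL) followed and gave the M2c state, which is the only state sequenced. The sources differ on the times, with 24 h of LPS and IFN-γ and 48 h of TGF-β1 in the sample labels against 12 h and either 24 h or 48 h in the methods. The sEH-/- libraries 1, 2 and 3 held 5818444, 5013265 and 4400197 counts, and the wild-type libraries 4632688, 6096440 and 5448287. Values are given below as CPM, which puts the counts of all libraries on 1 scale after TMM normalization, always in the order of replicates 1, 2 and 3.

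P450 enzymes insert an oxygen atom into fatty acids and other lipids, which gives epoxides or hydroxylated products, and they draw the electrons for this from NADPH through P450 reductase. Epoxide hydrolases add water to the epoxides and turn them into diols. In macrophages the balance between the epoxides and their diols is known to shape inflammatory signalling. Enzymes of the CYP4F group are best known for hydroxylating leukotriene B4, which ends its activity as a chemoattractant.

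The labelled cell type was checked first. Each of the 10 macrophage markers on a fixed list was detected in all libraries, with a summed level of 2399, 2902 and 2963 CPM in the sEH-/- libraries and 2682, 2126 and 2265 CPM in the wild-type libraries. *Csf1r*, the receptor for M-CSF, was the most abundant of them by count. Duplicate reads had been removed, which bounds the counts of such abundant genes, and *Lyz2*, at 0.88 counts per exonic base, held between 1153 and 1173 counts in every library, so that its CPM is set by the library total. None of the 10 was called in edgeR's quasi-likelihood test or by DESeq2, and 3 had an unadjusted edgeR p below 0.05. The log2 fold change was above 0 for all 10. *Cd14*, higher in all 3 sEH-/- libraries, passed the adjusted p (0.029) but not the fold threshold described next, with a log2 fold change of 0.50 (SE 0.10), and *Fcgr1* was higher in all 3 as well, at 0.45 with an edgeR adjusted p of 0.065. A call here means a Benjamini-Hochberg adjusted p below 0.05 over all 13785 tested genes together with a change of more than 1.5-fold, a log2 fold change beyond 0.585 in either direction.

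*Ephx2* encodes sEH, which hydrolyses fatty acid epoxides, and it is the deleted gene (ENSMUSG00000022040, chr14:66084374-66124500 on the minus strand, mm10). The sEH-/- libraries held 4, 2 and 1 counts of *Ephx2*, and the wild-type libraries held 26, 49 and 57 counts. In CPM these were 0.684, 0.404 and 0.232 against 5.72, 7.95 and 10.2. Every library fitted its label, and the genotypes lay far apart. The means were 0.44 ± 0.228 CPM for sEH-/- against 7.96 ± 2.25 CPM for wild-type libraries (SD, n = 3 each), with a log2 fold change of -4.05 (SE 0.43, edgeR adjusted p = 0.0042). The pooled sEH-/- level was 5.72% of the pooled wild-type level, with an exact 95% interval of 2.25% to 12.1% that covers counting error only. Which exons the remaining 7 counts lay in was not tested, since the table holds 1 value per gene and library. The wild-type level itself was low, with 3.21 ± 0.906 CPM per kilobase of exon (SD, n = 3), higher than in 24.7% of the tested genes, so that the spread among the wild-type libraries rests on few reads.

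*Ephx1* encodes the microsomal epoxide hydrolase, an enzyme of the endoplasmic reticulum with a broad range of substrates (ENSMUSG00000038776, chr1:180976210-181020904 on the minus strand). Its level was 63, 58.5 and 103 CPM in the sEH-/- libraries and 113, 133 and 122 CPM in the wild-type libraries, from 290 to 818 counts. All 3 sEH-/- libraries lay below all wild-type libraries, but sEH-/- library 3 stood close to the wild-type range while the other two were well under it. The means were 75 ± 24.7 and 122 ± 9.99 CPM (SD, n = 3 each). *Ephx1* was called lower in sEH-/- macrophages, with a log2 fold change of -0.72 (SE 0.18), a ratio of 0.606, and an edgeR adjusted p of 0.048. For a single gene the exact two-sided permutation test gave p = 0.1, the smallest that 3 against 3 libraries allow.

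The call of *Ephx1* lay close to the threshold and depended on single libraries. Without sEH-/- library 1 the adjusted p was 0.075 and without sEH-/- library 2 it was 0.16, with log2 fold changes of -0.61 and -0.56. Without wild-type library 2 it was 0.21 and without wild-type library 3 it was 0.17, at -0.66 and -0.73. Leaving out sEH-/- library 3, the high one, gave -1.0 with an adjusted p of 0.0027. The direction was the same in all 15 alternatives, in which the adjusted p ran from 0.0018 to 0.21. As in any bulk sample, fewer cells of a type that expresses the gene and less RNA per cell cannot be told apart.

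**Figure D1:**
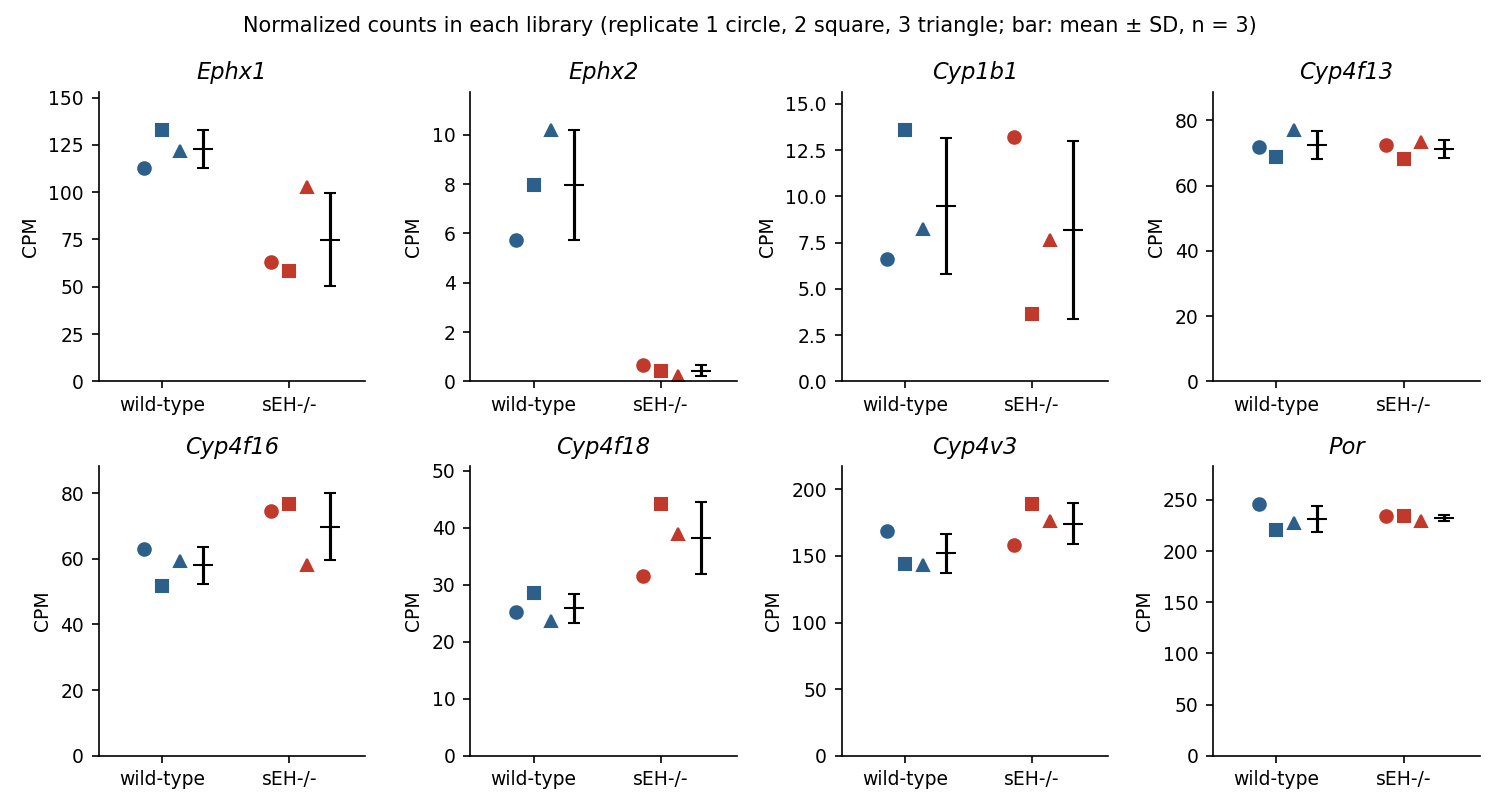
Normalized counts (CPM, linear axis from 0) of the 8 genes in each library, wild-type in blue and sEH-/- in red, with the mean ± SD of 3 libraries as a black bar. *Ephx2* lay between 0.232 and 0.684 CPM in the sEH-/- libraries, *Ephx1* was lower in all 3 of them, and the points of *Cyp4f13* and *Por* lie together.

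Per length, *Ephx1* was by far the more abundant hydrolase. In wild-type cells its level per kilobase of exon was 25.1, 21.3 and 15.2 times that of *Ephx2* in libraries 1, 2 and 3, so that *Ephx2* gave between 3.83% and 6.17% of the summed level of both genes. That sum was 60.1, 71.3 and 66.6 CPM per kilobase in the wild-type libraries and 32.6, 30.2 and 53.1 in the sEH-/- libraries. The sums did not overlap between the genotypes (exact two-sided permutation p = 0.1). This outcome was fixed in advance, since each of the genes alone was lower in every sEH-/- library than in any wild-type library. Most of the difference in the sum came from *Ephx1*, with 62.8 ± 5.12 CPM per kilobase (SD, n = 3) in wild-type and 38.4 ± 12.7 (SD, n = 3) in sEH-/- cells.

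The values of *Ephx1* followed the main axis of variation among the libraries. The first principal component of all tested genes held 49.4% of the variance and placed the sEH-/- libraries at -16.5, -38.6 and -12.5 and the wild-type libraries at 9.01, 34 and 24.6. Sorted by *Ephx1*, the libraries stood in exactly this order, from sEH-/- library 2, the lowest, to wild-type library 2, the highest. The component was computed from all tested genes, *Ephx1* among them, and how many others share this order was not counted. The summed level of the dendritic cell markers was also lowest in sEH-/- libraries 1 and 2. Of that list, 6 of 8 genes had a row in the table and 4 were tested, and the summed level was 29.8, 33.5 and 61.7 CPM in sEH-/- and 47.7, 64.3 and 55.4 CPM in wild-type libraries. *Clec9a* was the most abundant and carried most of the sum, with 16.4, 23.4 and 42.7 CPM against 30.3, 37.6 and 32.3 CPM, and *Cd209a* was at 0 in every library. *Xcr1*, not tested at a mean of 1.33 counts, lay at 0.513, 0.202 and 0.464 CPM against 0.22, 0.162 and 0 CPM. Its ranges overlapped, and its mean was the higher in sEH-/- cells, on very few reads. *Zbtb46* lay at 5.3, 3.23 and 9.28 CPM against 9.23, 14.6 and 10.6 CPM, lowest in sEH-/- library 2 and highest in wild-type library 2 as *Ephx1* was, with a log2 fold change of -0.98 (SE 0.34, edgeR adjusted p = 0.11). *Ccr7* lay at 4.79, 2.22 and 5.33 CPM against 2.42, 6.49 and 3.94 CPM, with overlapping ranges. It too was lowest in sEH-/- library 2 and highest in wild-type library 2. *Batf3* lay at 2.74, 4.44 and 3.94 CPM against 5.5, 5.35 and 8.6 CPM. It was lowest in sEH-/- library 1 and highest in wild-type library 3. Neither these genes nor *Zbtb46* had the full order of *Ephx1*. None of the 4 was called by edgeR or DESeq2, 2 had an unadjusted edgeR p below 0.05, and their part in the *Ephx1* result was not tested.

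The genes most like *Ephx1* were sought among the 10277 tested genes that averaged 50 counts or more, by the root mean square difference of log2 CPM relative to each gene's mean over the 6 libraries. *Per3*, a component of the circadian clock, was closest at 0.0893, followed by *Eml5* at 0.0905 and *Fbxo44*, an F-box protein of ubiquitin ligases, at 0.105, where the median of all candidates was 0.471. *Per3* lay at 11.6, 11.3 and 17.9 CPM in the sEH-/- libraries and 22.9, 27.7 and 24.7 CPM in the wild-type libraries. Since likeness to *Ephx1* chose these genes, their order of libraries is a description and no further support. For *Ephx2* the closest genes were *Crip2* at 0.552, *Gdf15* at 0.639 and *Eda2r* at 0.732, against a median of 1.7, which is a much looser likeness. *Gdf15*, a stress-induced cytokine, lay at 11.8, 4.04 and 7.42 CPM in sEH-/- and 21.1, 60.8 and 57.9 CPM in wild-type libraries, and its call was lost without wild-type library 2 or 3, the adjusted p reaching 0.12.

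**Figure D2:**
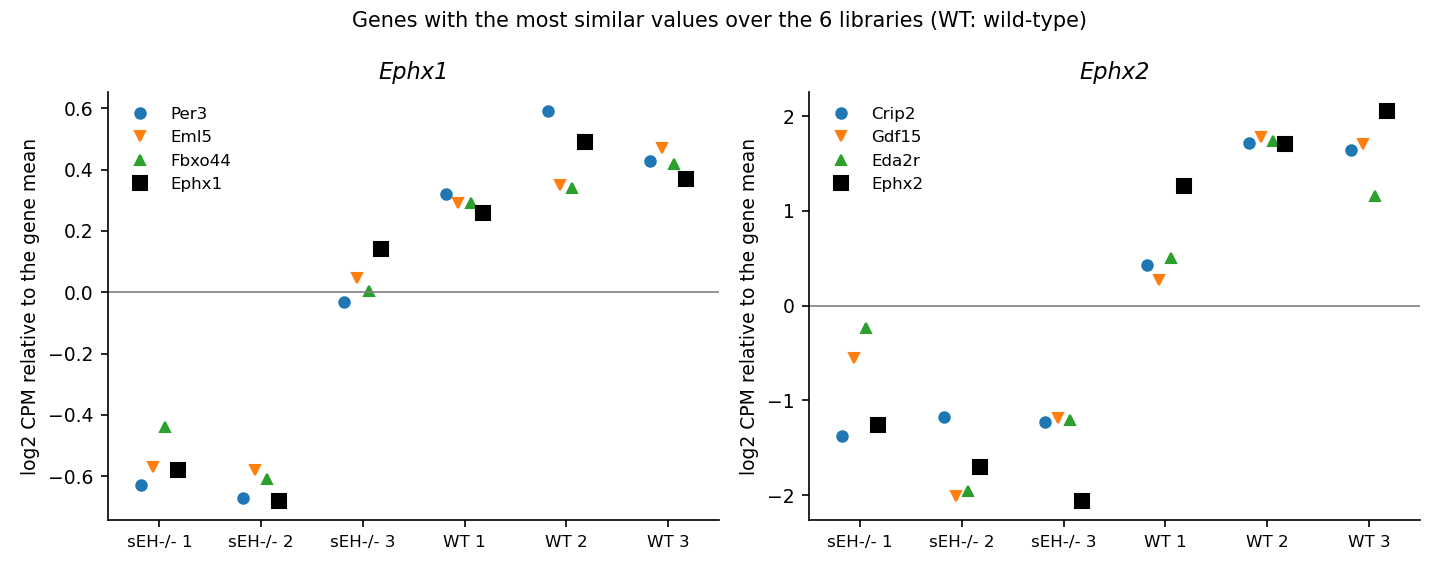
Log2 CPM relative to each gene's own mean in the 6 libraries, for *Ephx1* (left, black squares) and *Ephx2* (right, black squares) with the 3 genes whose values were most like them. On the left all genes are lowest in sEH-/- libraries 1 and 2, with sEH-/- library 3 between these and the wild-type libraries.

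Because *Ephx1* was the one gene besides the deleted one to be called, its promoter is shown, taken from RefSeq (GRCm38.p6), in which 7 of the 8 genes had an entry. The window runs from 250 bases before to 50 bases after the annotated start, at chr1:181017520-181017819 on the minus strand. It belongs to the start that RefSeq gives, which lies inside the span of the gene in the table's annotation given above. Capitals mark the GC box GGGCGG, searched on both strands.
Ephx1: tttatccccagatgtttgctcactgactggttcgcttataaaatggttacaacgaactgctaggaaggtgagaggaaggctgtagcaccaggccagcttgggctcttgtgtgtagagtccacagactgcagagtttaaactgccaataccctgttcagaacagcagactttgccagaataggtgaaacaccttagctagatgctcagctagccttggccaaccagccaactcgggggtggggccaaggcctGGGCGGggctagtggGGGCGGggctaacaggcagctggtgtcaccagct
The window holds 2 GC boxes, both after the annotated start, at positions 252 and 267 from its first base. A GC box occurred in 35.7% of the 32851 promoters of the same length, and in all 7 promoters of the genes described here. The core of the dioxin response element, GCGTG, was in 32.4% of all promoters and in those of *Cyp1b1*, *Cyp4f16*, *Cyp4v3* and *Por*. The core of the antioxidant response element, TGACNNNGC, was in 12.4% of all promoters and, among the 7, in that of *Cyp4f18*. None of these matches overlapped another. They describe the letters of the windows and do not show binding.

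No other epoxide hydrolase was called by edgeR or DESeq2. The list of other epoxide hydrolases held *Ephx3*, *Ephx4* and *Lta4h*, of which 1 was tested. *Lta4h*, which converts leukotriene A4 to leukotriene B4, was well expressed, with 107, 108 and 129 CPM in the sEH-/- libraries and 109, 118 and 118 CPM in the wild-type libraries. The ranges of *Lta4h* overlapped widely, and its log2 fold change was -0.0075 (SE 0.086, edgeR adjusted p = 0.97). *Ephx3* and *Ephx4* had means of 0.333 and 3.67 counts and were not tested. At 2, 1 and 1 against 3, 6 and 9 counts, *Ephx4* was lower in every sEH-/- library than in any wild-type library, on very few reads.

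The genes around *Ephx2* were examined next. Within 250 kb, 5 further genes were tested, *Ccdc25*, *Clu*, *Ptk2b*, *1700001G11Rik* and *Trim35*, and none was called by edgeR or DESeq2 or had an unadjusted p below 0.05. *Ptk2b*, the next tested gene upstream of *Ephx2* and a focal adhesion kinase relative, lay at 320, 357 and 366 CPM in sEH-/- and 357, 345 and 351 CPM in wild-type libraries. *Clu*, the next tested gene on the other side, lay at 4.96, 4.84 and 4.41 CPM against 2.64, 4.71 and 4.3 CPM, with an edgeR adjusted p of 0.62. *Scara3* and *Stmn4* had too few counts to be tested, with 0 counts of *Stmn4* in every library.

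Of the 8 genes, 2 were called, both lower in sEH-/- macrophages, and 0 were called higher. One of the 2 is the deleted gene, so that 1 of the 7 others was called. Among all 13785 tested genes edgeR called 360, or 2.61%, with 152 (1.1%) lower and 208 (1.51%) higher. In 3 of the 8 genes, *Ephx1*, *Ephx2* and *Cyp4f18*, the genotypes did not overlap in CPM, which was the case for 3625 of all tested genes, or 26.3%. The median log2 fold change of the 7 genes apart from *Ephx2* was 0.0077, beside -0.00092 over all tested genes. The share without overlap is near that background, and the called share rests on *Ephx1* alone. The count of all calls itself rested on single libraries. It was 96 without sEH-/- library 2, 25 without wild-type library 2 and 6 without wild-type library 3, but 570 without sEH-/- library 3 and 625 without wild-type library 1.

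**Figure D3:**
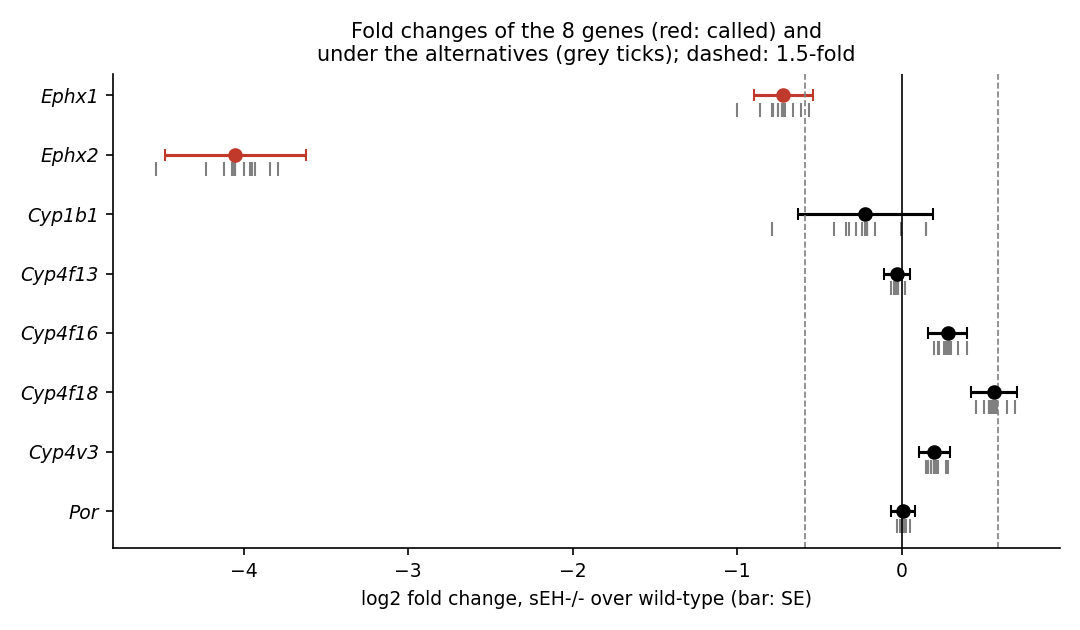
Log2 fold changes (sEH-/- over wild-type) of the 8 genes with their SE, in red where called, and their values under the alternatives as grey ticks. Dashed lines mark 1.5-fold. *Ephx2* lies at -4.05 and *Ephx1* at -0.72, and *Cyp4f18* at 0.56 lies just inside the 1.5-fold line.

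*Cyp4f18* is a P450 gene of the CYP4F group that fell just short of a call (ENSMUSG00000003484, chr8:71988482-72009626 on the minus strand). Its enzyme hydroxylates leukotriene B4 in mouse myeloid cells, neutrophils above all. Its level was 31.5, 44.2 and 39 CPM in the sEH-/- libraries and 25.3, 28.6 and 23.7 CPM in the wild-type libraries. All sEH-/- libraries lay above all wild-type libraries, with the smallest gap between sEH-/- library 1 and wild-type library 2. The means were 38.2 ± 6.39 and 25.8 ± 2.49 CPM (SD, n = 3 each), with a log2 fold change of 0.56 (SE 0.14), a ratio of 1.47. The edgeR adjusted p was 0.057, so that *Cyp4f18* missed both thresholds narrowly and was not called. Without sEH-/- library 1 the log2 fold change was 0.69 and the adjusted p 0.022, which is a call, while over all 15 alternatives the adjusted p ran from 0.022 to 0.21.

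Because *Cyp4f18* is also a gene of neutrophils, the neutrophil markers are given beside it. Of 12 markers, 9 had a row in the table and 3 were tested, and the summed level was 326, 415 and 403 CPM in sEH-/- and 353, 294 and 302 CPM in wild-type libraries. *Mmp8* was the most abundant and made up most of that sum, at 0.6 counts per exonic base and thus also near the bound, with 256, 300 and 330 CPM against 300, 246 and 251 CPM. *Csf3r*, the G-CSF receptor, lay at 41.7, 82.5 and 43.6 CPM against 35.6, 28.2 and 30.1 CPM, and *S100a8* at 24, 29.7 and 27.1 CPM against 17.1, 18.2 and 20.1 CPM. Both were higher in all 3 sEH-/- libraries without a call by edgeR, with adjusted p of 0.069 and 0.057, and DESeq2 called 1 of them, *Csf3r*. Like *Cyp4f18*, *Csf3r* and *S100a8* were highest in sEH-/- library 2. The granule genes *Elane*, *Camp*, *Ngp* and *Ltf*, which define neutrophil precursors, had means of 1.33 to 3.33 counts and were not tested, and *S100a9* had a mean of 1.5. In CPM, *Elane*, *Camp* and *Ngp* too were higher in all 3 sEH-/- libraries than in any wild-type library, on very few reads. In counts only *Camp* was, with 10, 3 and 4 against 1, 1 and 1. For *Elane* and *Ngp*, sEH-/- library 3 equalled a wild-type library in counts. The ranges of *Ltf*, *S100a9* and *Cxcr2* overlapped. The part of neutrophils in the *Cyp4f18* values was not tested.

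*Cyp4f13* and *Cyp4f16* belong to the same group and lie on chromosome 17. *Cyp4f13* (ENSMUSG00000024055, chr17:32924688-32947402 on the minus strand) lay at 72.4, 68 and 73.3 CPM in the sEH-/- libraries and 71.9, 68.6 and 77.1 CPM in the wild-type libraries. The ranges nearly coincided, and the log2 fold change was -0.026 (SE 0.079, edgeR adjusted p = 0.88). *Cyp4f16* (ENSMUSG00000048440, chr17:32536558-32551798 on the plus strand) lay at 74.6, 76.7 and 58 CPM against 62.9, 51.8 and 59.2 CPM. Here sEH-/- libraries 1 and 2 lay above the wild-type libraries while sEH-/- library 3 lay among them. *Cyp4f16* had a log2 fold change of 0.28 (SE 0.12) with an edgeR adjusted p of 0.19, and it was not called. Its reads are less well assigned than those of its relatives. Of the 50-base windows in its transcripts, 17.4% also occurred in a transcript of another gene, 544 of them in *Cyp4f37*, against 1.11% for *Cyp4f13* and 0.378% for *Cyp4f18*. Reads that matched several places had been removed before counting, and *Cyp4f37* had 0 counts in every library.

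The neighbours of *Cyp4f16* in the same cluster were *Cyp4f17* and *Cyp4f39* on one side and *Cyp4f37* on the other. *Cyp4f17*, the gene next to *Cyp4f16* on the same strand, lay at 20.9, 16.5 and 13 CPM in the sEH-/- libraries and 22.2, 32.6 and 28.5 CPM in the wild-type libraries. The genotypes did not overlap, but sEH-/- library 1 nearly reached wild-type library 1. The log2 fold change of *Cyp4f17* was -0.72 (SE 0.20) with an edgeR adjusted p of 0.064, and it was not called, although 4 of 15 alternatives called it. So the adjoining genes *Cyp4f16* and *Cyp4f17* had fold changes of opposite sign, neither of them past the threshold, and the difference between the genes was not tested. *Cyp4f39* had a mean of 0.833 counts. Next to *Cyp4f13*, the pseudogene *Cyp4f41-ps* lay at 4.96, 4.44 and 4.17 CPM against 3.3, 5.52 and 6.81 CPM, with overlapping ranges.

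The promoters of the 3 CYP4F genes are shown to compare members of a family whose values differ, each with the CCAAT box in capitals (ATTGG as read on the strand of the gene, searched on both strands). They lie at chr17:32947312-32947611 on the minus strand (*Cyp4f13*), chr17:32536307-32536606 on the plus strand (*Cyp4f16*) and chr8:72009577-72009876 on the minus strand (*Cyp4f18*), from RefSeq on GRCm38.p6.
Cyp4f13: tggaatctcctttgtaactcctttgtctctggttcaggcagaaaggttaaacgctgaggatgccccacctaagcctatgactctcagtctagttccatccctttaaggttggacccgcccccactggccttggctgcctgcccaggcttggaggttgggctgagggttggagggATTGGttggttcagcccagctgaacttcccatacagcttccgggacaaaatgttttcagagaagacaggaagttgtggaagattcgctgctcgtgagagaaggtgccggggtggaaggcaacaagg
Cyp4f16: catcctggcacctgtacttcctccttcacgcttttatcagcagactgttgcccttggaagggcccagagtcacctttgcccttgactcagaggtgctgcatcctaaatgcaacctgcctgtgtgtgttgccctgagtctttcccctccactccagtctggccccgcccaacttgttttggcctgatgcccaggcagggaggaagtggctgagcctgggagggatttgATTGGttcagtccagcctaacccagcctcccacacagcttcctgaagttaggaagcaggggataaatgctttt
Cyp4f18: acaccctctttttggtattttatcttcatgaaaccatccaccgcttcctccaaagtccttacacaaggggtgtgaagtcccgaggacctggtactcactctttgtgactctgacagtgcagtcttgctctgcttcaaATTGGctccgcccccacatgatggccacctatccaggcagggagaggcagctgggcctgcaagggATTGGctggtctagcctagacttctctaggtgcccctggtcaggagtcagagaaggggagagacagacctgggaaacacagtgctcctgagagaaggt
*Cyp4f13* and *Cyp4f16* hold 1 CCAAT box each and *Cyp4f18* holds 2, where 37.4% of all 32851 promoters hold at least 1. Each of the 3 windows also holds 1 GC box, on the opposite strand.

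*Cyp4v3* is a fatty acid hydroxylase of the endoplasmic reticulum whose human counterpart is linked to a degeneration of the cornea and retina (ENSMUSG00000079057, chr8:45304944-45333216 on the minus strand). Its level was 158, 189 and 176 CPM in the sEH-/- libraries and 169, 144 and 143 CPM in the wild-type libraries. Wild-type library 1 lay within the sEH-/- range, and the other two wild-type libraries lay below it. The means were 174 ± 15.9 and 152 ± 14.7 CPM (SD, n = 3 each), with a log2 fold change of 0.20 (SE 0.092, edgeR adjusted p = 0.22). Of its exonic bases, 313 are shared with another annotated gene on the same strand, 8.22% of the gene, and reads there were not counted if they fell in both.

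*Cyp1b1* hydroxylates steroids and fatty acids and is a target of the aryl hydrocarbon receptor (ENSMUSG00000024087, chr17:79701537-79715061 on the minus strand). It was the least abundant of the P450 genes described here, with 13.2, 3.63 and 7.65 CPM in the sEH-/- libraries and 6.6, 13.6 and 8.25 CPM in the wild-type libraries. sEH-/- library 1 and wild-type library 2 were high and sEH-/- library 2 was low, and the spread within a genotype exceeded the difference between the means. The log2 fold change was -0.22 (SE 0.41, edgeR adjusted p = 0.80), and its sign turned without sEH-/- library 2 or without wild-type library 2, to 0.15 in both cases.

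Since *Cyp1b1* is also expressed in stromal and endothelial cells, the markers of these cells are given. All 10 had a row in the table, 9 were tested and 0 were called by edgeR or DESeq2, with an unadjusted edgeR p below 0.05 for 1. The summed level was 85.5, 79.5 and 68.4 CPM in sEH-/- and 71.5, 126 and 77.1 CPM in wild-type libraries, and *Kdr* was the most abundant. *Col1a2* stood at 27.7 CPM in wild-type library 2 and at 10.4 CPM or less in the other libraries, and *Pecam1* at 13.3 CPM in sEH-/- library 1 and 3.96 CPM or less elsewhere. *Cyp1b1* was high in these same libraries. Among the sEH-/- libraries, *Dcn*, *Pdgfrb*, *Col1a1* and *Col3a1* were also highest in library 1, at 4.79, 4.96, 5.3 and 3.59 CPM, whereas *Cdh5* at 1.03 CPM and *Kdr* at 41.1 CPM were lowest there, and *Col1a2* and *Acta2* were highest in library 2. The part of such cells in the values of *Cyp1b1* was not tested.

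*Por* encodes P450 reductase, the electron donor of all microsomal P450 enzymes (ENSMUSG00000005514, chr5:135670033-135735326 on the plus strand). It was the most abundant of the 8 genes by count, with 234, 234 and 229 CPM in the sEH-/- libraries and 246, 221 and 227 CPM in the wild-type libraries. The sEH-/- values lay inside the wild-type range. The log2 fold change was 0.0077 (SE 0.071, edgeR adjusted p = 0.96), and under the alternatives it ran from -0.026 to 0.052, crossing 0.

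Per kilobase of exon, the order of the levels in wild-type cells was *Ephx1* (62.8 ± 5.12), *Por* (57.5 ± 3.21), *Cyp4v3* (39.8 ± 3.85), *Cyp4f16* (18.9 ± 1.84), *Cyp4f13* (16.3 ± 0.959), *Cyp4f18* (13.9 ± 1.34), *Ephx2* (3.21 ± 0.906) and *Cyp1b1* (1.63 ± 0.63), all in CPM per kilobase (SD, n = 3). The neighbours *Ephx1* and *Por* changed places between libraries, so that their order is not set. The ranges of *Cyp4f16* and *Cyp4f13* overlapped too, as did those of *Ephx2* and *Cyp1b1*, although the first of each pair was the higher within every wild-type library. *Ephx1* lay above 96.9% and *Por* above 96.1% of the tested genes on this scale, and *Cyp1b1* above 16.3%. In sEH-/- cells *Por* (57.8 ± 0.766) stood above *Ephx1* (38.4 ± 12.7) in every library, while the order of *Ephx1* and *Cyp4v3* (45.8 ± 4.18) is not set, since *Ephx1* was the higher of them in sEH-/- library 3, and *Cyp4f18* (20.6 ± 3.44) overlapped with *Cyp4f16* (22.7 ± 3.34) and had a higher mean than *Cyp4f13* (16 ± 0.635).

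The P450 genes were also counted as a group by their symbol. The table had 24 genes whose symbol is Cyp, a number and a letter, a rule that leaves out *Cyp51* and *Tbxas1*, of which 1 had no count, 9 had a mean of 5 counts or fewer and 14 were tested. In none of the 14 was a change called by edgeR, while 6 had an unadjusted p below 0.05 and DESeq2 called 1. Without sEH-/- library 1, edgeR called 3. The log2 fold change was above 0 for 7 and below 0 for 7 of them, with a median of 0.061. Per kilobase, the 5 most abundant of these 24 in wild-type cells were *Cyp4v3*, *Cyp4f16*, *Cyp20a1*, *Cyp4f13* and *Cyp4f18*. *Cyp20a1*, a P450 of unknown function, was thus the only one of these not among the genes described above, and it lay at 44, 47.2 and 32 CPM in sEH-/- and 37.6, 41.2 and 34.8 CPM in wild-type libraries. The 5 P450 genes described above made up between 60.6% and 68.8% of the summed level per kilobase of the 24 genes in each library. *Cyp4v3* alone gave 27.3 ± 1.82% in wild-type and 28.4 ± 2.31% in sEH-/- cells, and *Cyp4f18* 9.56 ± 0.922% and 12.7 ± 1.83% (SD, n = 3 each).

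**Figure D4:**
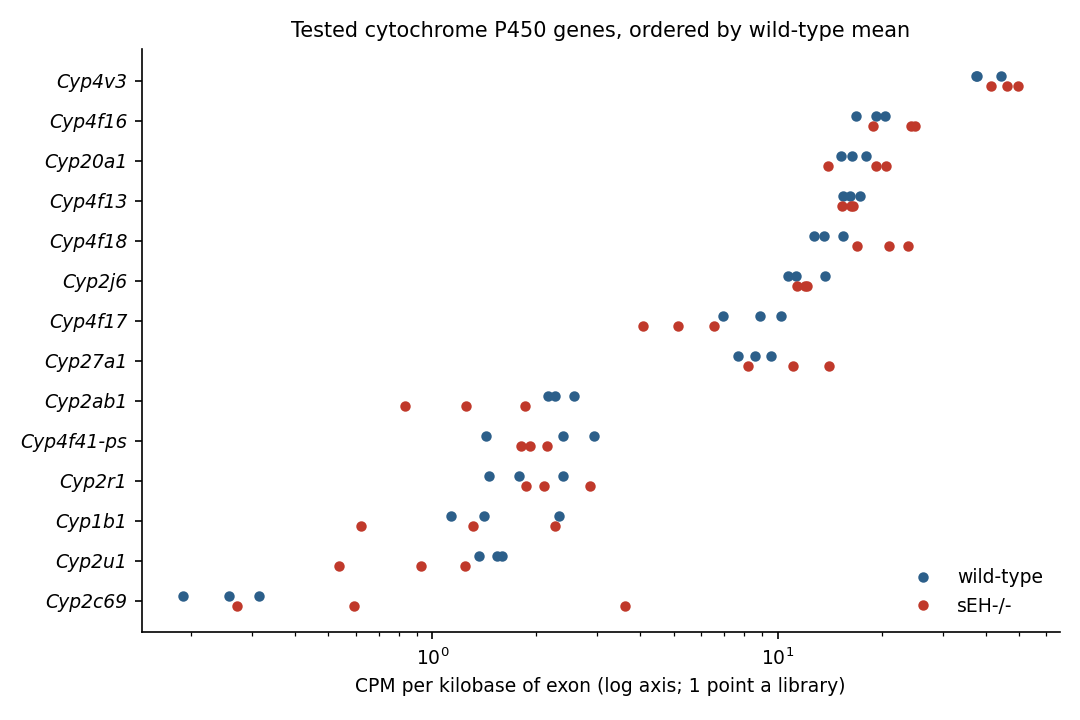
Level of the 14 tested P450 genes in CPM per kilobase of exon (log axis), 1 point per library, wild-type in blue and sEH-/- in red, ordered by the wild-type mean. *Cyp4v3* is highest, and *Cyp2c69* is near the floor except in sEH-/- library 1. The points of *Cyp4f18* (higher in sEH-/-) and of *Cyp4f17*, *Cyp2ab1* and *Cyp2u1* (lower) separate by genotype.

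The CYP2 list holds the epoxygenases that form epoxyeicosatrienoic acids in many tissues. Of its 27 genes, 5 had a row in the table, 3 were tested and 0 were called by edgeR, 2 of them at an unadjusted p below 0.05 and 0 called by DESeq2. *Cyp2j6* was the main one, with 43.1, 43.8 and 41 CPM in sEH-/- and 49.5, 38.6 and 40.7 CPM in wild-type libraries, and a log2 fold change of -0.0013 (SE 0.11). *Cyp2u1*, which hydroxylates long-chain fatty acids, lay at 6.5, 2.82 and 4.87 CPM against 8.35, 7.14 and 8.07 CPM, lower in all 3 sEH-/- libraries with an edgeR adjusted p of 0.18. *Cyp2c69* reached 6.16 CPM in sEH-/- library 1 and at most 1.01 CPM in any other library, so that its log2 fold change of 2.59 (SE 0.91, edgeR adjusted p = 0.12) rests on that library.

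The remaining P450 genes on the list of sterol, vitamin and eicosanoid P450s were 11 with a row in the table, 5 of them tested and 0 called by edgeR or DESeq2, at an unadjusted edgeR p below 0.05 for 1. *Tbxas1*, thromboxane synthase, was the most abundant at 199, 224 and 258 CPM in sEH-/- and 215, 179 and 190 CPM in wild-type libraries, with overlapping ranges. *Cyp51*, the lanosterol demethylase of cholesterol synthesis, lay at 44.7, 28.5 and 34.8 CPM against 48.6, 54.5 and 50.5 CPM. The genotypes did not overlap for *Cyp51*, but it was not called (log2 fold change -0.50, SE 0.15, edgeR adjusted p = 0.073), except without sEH-/- library 1, where the adjusted p was 0.02 at -0.70.

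The aryl hydrocarbon receptor list, which holds the receptor, its partners and targets other than *Cyp1b1*, had 8 tested genes and 0 calls by edgeR, with 3 at an unadjusted p below 0.05 and a median log2 fold change of -0.12. *Tiparp*, a target that feeds back on the receptor, lay at 169, 139 and 173 CPM in sEH-/- and 191, 214 and 201 CPM in wild-type libraries. *Arnt*, the partner of the receptor, lay at 161, 148 and 164 CPM against 179, 196 and 178 CPM. Both were lower in all 3 sEH-/- libraries, by less than 1.5-fold and with edgeR adjusted p of 0.062 and 0.096.

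No partner of the P450 enzymes was called. Of the electron supply genes besides *Por*, cytochrome b5 and its reductases among them, 9 were tested and 0 were called by edgeR, at an unadjusted p below 0.05 for 1, with a median log2 fold change of -0.03. *Cyb5b* lay at 211, 213 and 215 CPM in sEH-/- and 221, 209 and 223 CPM in wild-type libraries, and *Cyb5r3* at 180, 197 and 208 CPM against 183, 167 and 183 CPM. *Cyb5r4* had a log2 fold change of 0.019 (SE 0.079). Of the heme genes, which make and break down the cofactor, 12 were tested and 0 were called by edgeR, at an unadjusted p below 0.05 for 1, with a median of 0.022. *Alas1*, the rate-limiting enzyme of heme synthesis, lay at 253, 300 and 371 CPM against 323, 277 and 290 CPM, and *Hmox1*, heme oxygenase, at 233, 252 and 294 CPM against 288, 233 and 253 CPM. *Hmox2* had a log2 fold change of 0.16 (SE 0.089). DESeq2 called none of the genes in the aryl hydrocarbon receptor, electron supply and heme lists.

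Glutathione transferases are the other enzymes that open epoxides. Of 17 tested, 1 was called, *Gsto2*, an omega class transferase that acts as a dehydroascorbate reductase. It lay at 5.82, 3.63 and 6.72 CPM in the sEH-/- libraries and 9.89, 11.7 and 12.7 CPM in the wild-type libraries. All sEH-/- libraries lay below all wild-type libraries, and *Gsto2* was called lower (log2 fold change -1.09, SE 0.25, edgeR adjusted p = 0.046). Among the alternatives that lost the call were those without sEH-/- library 2 (adjusted p = 0.14), wild-type library 2 (0.20) or wild-type library 3 (0.19), and with a covariate for library totals (0.078), over a range of 0.024 to 0.20 in all 15 alternatives. In all, 3 genes of the list had an unadjusted edgeR p below 0.05. One of them, *Gstcd*, lay at 24.1, 24.6 and 23 CPM against 31.7, 36.7 and 33 CPM and passed the adjusted p (0.044), but its log2 fold change of -0.50 (SE 0.12) was under 1.5-fold. *Gstm4* was also lower in all 3 sEH-/- libraries, with an edgeR adjusted p of 0.11. The abundant *Mgst1*, *Gstm1* and *Gsto1* were not called, with log2 fold changes of 0.14, -0.14 and 0.083. The median of the list was -0.057.

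The last list holds acyl-CoA synthetases, fatty acid binding proteins and lysophospholipid acyltransferases, which carry fatty acids and their epoxides into membranes. Of 12 tested genes, 1 was called, *Lpcat2*, an acyltransferase of phosphatidylcholine that also makes platelet-activating factor. It lay at 126, 169 and 150 CPM in the sEH-/- libraries and 114, 85.2 and 97.7 CPM in the wild-type libraries. All sEH-/- libraries lay above all wild-type libraries, and *Lpcat2* was called higher (log2 fold change 0.59, SE 0.12, edgeR adjusted p = 0.033), barely past 1.5-fold. Alternatives that lost the call included those without sEH-/- library 2 (adjusted p = 0.099), wild-type library 2 (0.16) or wild-type library 3 (0.15), over a range of 0.00057 to 0.16 in all 15 alternatives. It was also lost, among others, without TMM factors (log2 fold change 0.57), without the filter on low counts (0.58) and with a covariate for library totals (0.52). *Acsl1*, *Acsl4* and *Acsl5*, the most abundant synthetases, were not called, with log2 fold changes of 0.22, 0.11 and 0.12. The median of the list was 0.068.

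Over the 9 pathway lists, 68 genes were tested and 2 were called, or 2.94%, beside 2.61% of all tested genes. Of the 68, 36 had a log2 fold change above 0, and their median was 0.014.

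**Figure D5:**
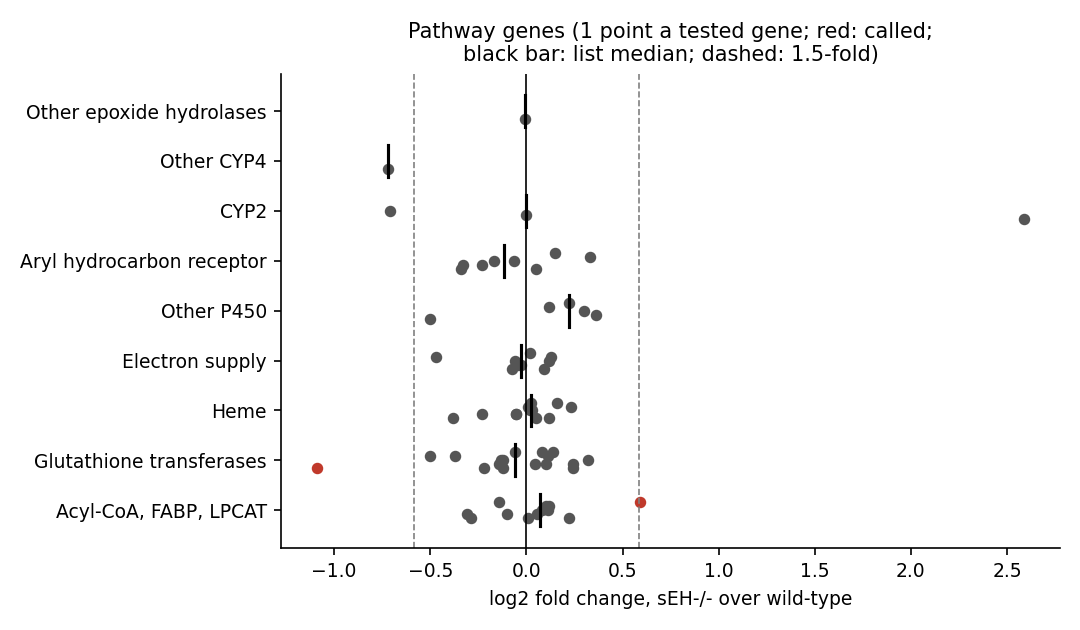
Log2 fold changes (sEH-/- over wild-type) of the tested genes on the 9 pathway lists, 1 point per gene, in red where called, with the list median as a black bar and dashed lines at 1.5-fold. Most points lie near 0, and the called ones are *Gsto2* at -1.09 and *Lpcat2* at 0.59.

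Markers of other cell types were low. Of the lymphocyte list 2 of 10 genes had a row in the table, with a summed level of 16.4 to 35.9 CPM carried by *Cd4*. Of the mast cell and eosinophil list it was 2 of 8, with 6.67 to 19 CPM carried by *Siglecf*, and of the erythroid list 2 of 7, with at most 3.94 CPM. None of the tested genes on these lists was called by edgeR or DESeq2 or had an unadjusted p below 0.05.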

How the data were processed

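The values are raw counts of reads per gene, deposited by the authors without normalization. According to the methods, reads were trimmed and aligned to mm10. Reads that were duplicates, mapped to several places or came from mitochondrial or ribosomal RNA were dropped, and the rest was counted by strand over exons, leaving out reads in more than 1 gene. The submitters' processing notes name Trimmomatic 0.39, STAR 2.7.7a, Picard 2.21.7, featureCounts 1.6.5 and DESeq2 1.30.0, where the methods name other versions of some tools. Labels and methods also differ on RNA input (1.5 or 1 μg) and library kit. Removing duplicates bounds the count per base. The 8 genes had at most 0.3 counts per exonic base, while other genes named here lie nearer to 1, such as *Hmox1* (0.76) and *Mmp8* (0.6).

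Counts were fitted in R 4.3.3 with edgeR 4.0.16 (TMM, glmQLFit and glmQLFTest, no covariates) over the 13785 genes with a mean above 5 counts, 99.8% of all counts. TMM factors lay between 0.982 and 1.03. Each SE was taken from the fold change and the root of its F statistic. Alternatives were DESeq2 1.42.0, limma 3.58.1 (voom), RLE or no TMM factors, other filters, a correction for 1 count per exonic base, a replicate block and leaving out each library, and, chosen after seeing the data, a covariate for the logarithm of each library's total. No pair of libraries of 1 genotype differed by as little as sampling noise. Exonic lengths and transcripts came from GENCODE M21, which held 19286 of the 19309 identifiers, and promoters from RefSeq. Figures used matplotlib 3.10.9.

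The genes and lists were chosen with earlier results of these data known. Named are the 8 genes, each called gene of the pathway lists with the 3 most counted of each, the 5 most abundant P450 genes per length, genes within 250 kb of *Ephx2* and in the *Cyp4f* clusters, and the 3 genes most like each called one. Others were named after their values were seen, and 1 gene that the rule names is not reported here. Marker lists covered macrophages, neutrophils, dendritic cells, lymphocytes, mast cells and eosinophils, erythroid cells, and stromal and endothelial cells.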

Additional observations from a re-analysis of the deposited data

How the results depend on the processing

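The fold change of *Ephx2* kept its direction and its call in all 15 alternatives, from -4.53 to -3.79. That of *Ephx1* kept its direction, from -1.0 to -0.56, and lost its call in 6, with RLE normalization (adjusted p = 0.051), the covariate (0.073) and 4 libraries left out. *Cyp4f16*, *Cyp4f18* and *Cyp4v3* kept their direction. Signs turned for genes near 0, with log2 fold changes of -0.79 to 0.15 for *Cyp1b1*, -0.067 to 0.023 for *Cyp4f13* and -0.026 to 0.052 for *Por* when a library was left out, and of -0.012 without TMM factors, -0.002 with the ceiling correction and -0.0045 with the covariate for *Por*.

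Of the 8 genes, RLE normalization called 1 and the covariate called 1, and leaving out a library gave 1 to 2. On the pathway lists the main count of 2 became 1 without TMM factors and 0 with the covariate, and 0 to 4 with a library left out. The count over all genes, 360, became 171 with the covariate and 553 without the 1.5-fold threshold. With a library left out, and so on fewer samples, it ran from 6 to 625, on either side of 360. DESeq2 called 472, limma-voom 307. Dropping the threshold can only add calls, and the cause of the other shifts, those with a library left out among them, was not tested.

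With the replicate number as a block, 234 genes were called, 2 of the 8 genes and 0 on the pathway lists, where *Lpcat2* had an adjusted p of 0.055 and *Gsto2* of 0.073. The values gave no sign that the numbers pair the libraries, although so few libraries cannot settle this. Deviations of same-numbered libraries had correlations of -0.0818, -0.26 and -0.0367, and not every library correlated best with its own number.

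Depth limits *Ephx2*, with 1 to 4 counts per sEH-/- library, and *Cyp1b1*, with 18 to 84. Changes under 1.5-fold are not called by construction.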
